A study of Bos taurus with 47 samples.

Results

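The 6 genes described here lead heart or muscle, by abundance or by their excess over the other tissue, among 24616 Ensembl identifiers measured in Holstein cattle. They were picked by their heart and muscle levels: the most abundant gene of muscle (ENSBTAG00000046332), the most abundant gene of heart (ENSBTAG00000018369), the 2 genes with the largest excess in heart (ENSBTAG00000006424 and ENSBTAG00000045789) and the 2 with the largest excess in muscle (ENSBTAG00000021218 and ENSBTAG00000010880). All 6 were found in the table. The files do not pair identifiers with gene names, so what each encodes is unknown here, and the labelled tissues could not be checked against named marker genes.

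Heart and muscle were each sampled from the same 4 animals, 2 males (males 1 and 2 here) and 2 females (females 1 and 2), with no treatment in the labels. The other 39 of the 47 libraries carry 13 labels. Adipose, frontal cortex, ileum, kidney, liver, lung, rumen and spleen came from those 4 animals, and ovary and uterus from both females. The lactating mammary gland came from female 1, the dry gland from female 2 and lymphocytes from a further male (male 3), with 1 library each. The labels give no age, housing or collection date and do not name the part of the heart, and the muscle samples' titles carry a code (LDOR, once LDO) that they do not spell out. Levels are FPKM, read fragments scaled to transcript length and to library size, which allows genes of different length to be set side by side. The files hold no counts, so the depth is unknown, and summed FPKM ran from 576129 to 964931 per library. Hearts had larger sums (862186 to 964931) than muscles (711000 to 733562), and levels and ratios are not rescaled for this unless stated.

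Striated muscle contracts when myosin filaments pull on actin filaments inside repeating units called sarcomeres. Heart and skeletal muscle are built from the same kinds of proteins, but many of these are encoded by separate genes, of which one serves mainly the heart and another mainly skeletal muscle. Other genes serve both, because the heart and the slow fibres of skeletal muscle share part of their machinery. Whether the 6 genes belong to this machinery cannot be told from identifiers alone.

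The 6 genes fell into 3 patterns by their levels. The heart pair ENSBTAG00000006424 and ENSBTAG00000045789 and the muscle pair ENSBTAG00000021218 and ENSBTAG00000010880 were abundant in 1 striated tissue and at no more than 6.95 FPKM in the other. ENSBTAG00000046332 and ENSBTAG00000018369 were highest in one striated tissue and still at 608 FPKM or more in every library of the other. These values chose the genes and are given as a description. Across all genes, heart was higher for 26.3% and muscle for 6.83% of 11877 genes that limma tested on the log2(FPKM + 1) scale. A call needed an adjusted p under 0.05 and a difference of at least 1. These were 3120 and 811 genes, against 1586 and 1379 after quantile normalization and 2081 and 1119 with each library rescaled to the same sum. All 6 genes had separate heart and muscle libraries. By the size of the difference, the 2 genes chosen for abundance were not at the extremes: ENSBTAG00000018369 ranked 529 from the heart end and ENSBTAG00000046332 ranked 49 from the muscle end of the 11877 genes.

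ENSBTAG00000046332, the most abundant gene of muscle, was listed there at 79232, 71689, 63412 and 74458 FPKM in males 1 and 2 and females 1 and 2. It ranked first in each of these libraries. In heart it was listed at 1465, 608, 2860 and 3507 FPKM in the same order of animals and ranked between 31 and 223. Its muscle mean was 72198 FPKM ± 6634 and its heart mean 2110 FPKM ± 1315 (SD, n = 4 each), a ratio of 34.2. The animals differed little in muscle, while the lowest and the highest heart library lay far apart.

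ENSBTAG00000021218 was listed in muscle at 21946, 20898, 25271 and 20542 FPKM in males 1 and 2 and females 1 and 2. In heart it stood at 3.48, 1.89, 0.142 and 3.04 FPKM. ENSBTAG00000010880 was listed in muscle at 16666, 16788, 15830.4 and 17326 FPKM and in heart at 3.19, 1.92, 0 and 3.12 FPKM. The heart library of female 1 was the lowest for both. In that library, genes restricted to liver and to rumen also had a median of 0 ppm of their mean level in liver or rumen, against 91.4 to 528 ppm and 89.2 to 178 ppm in the other 3 hearts, and their part in the muscle genes' low values was not tested.

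On the heart side, ENSBTAG00000006424 was listed at 28406, 22159, 30977 and 28377 FPKM in the hearts of males 1 and 2 and females 1 and 2, and at 6.95, 3.88, 5.02 and 3.14 FPKM in their muscles. It was the third most abundant gene of every heart. ENSBTAG00000045789 was listed at 12581, 9566, 12864 and 12600.0 FPKM in heart and at 3.42, 3.98, 4.32 and 3.87 FPKM in muscle, and ranked between 7 and 10 in heart. Male 2 had the lowest heart level of both genes. No muscle library was at 0 for either.

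ENSBTAG00000018369, the most abundant gene of heart, was listed there at 40063, 28863, 50717 and 64586 FPKM in males 1 and 2 and females 1 and 2 and ranked first in all 4. In muscle it was listed at 9949, 8036, 11608 and 9811 FPKM and ranked between 12 and 13. Its means were 46057 FPKM ± 15238 in heart and 9851 FPKM ± 1460 in muscle (SD, n = 4 each), a ratio of 4.68. Of the 6 genes it had the smallest gap between the striated tissues, 2.18 ± 0.23 (SE) on the log2 scale. For ENSBTAG00000046332 the heart minus muscle difference on that scale was -5.38 ± 0.43 (SE), and for the other 4 genes it ran from 11.24 to 12.26 on the heart side and from -12.61 to -12.96 on the muscle side.

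**Figure D1:**
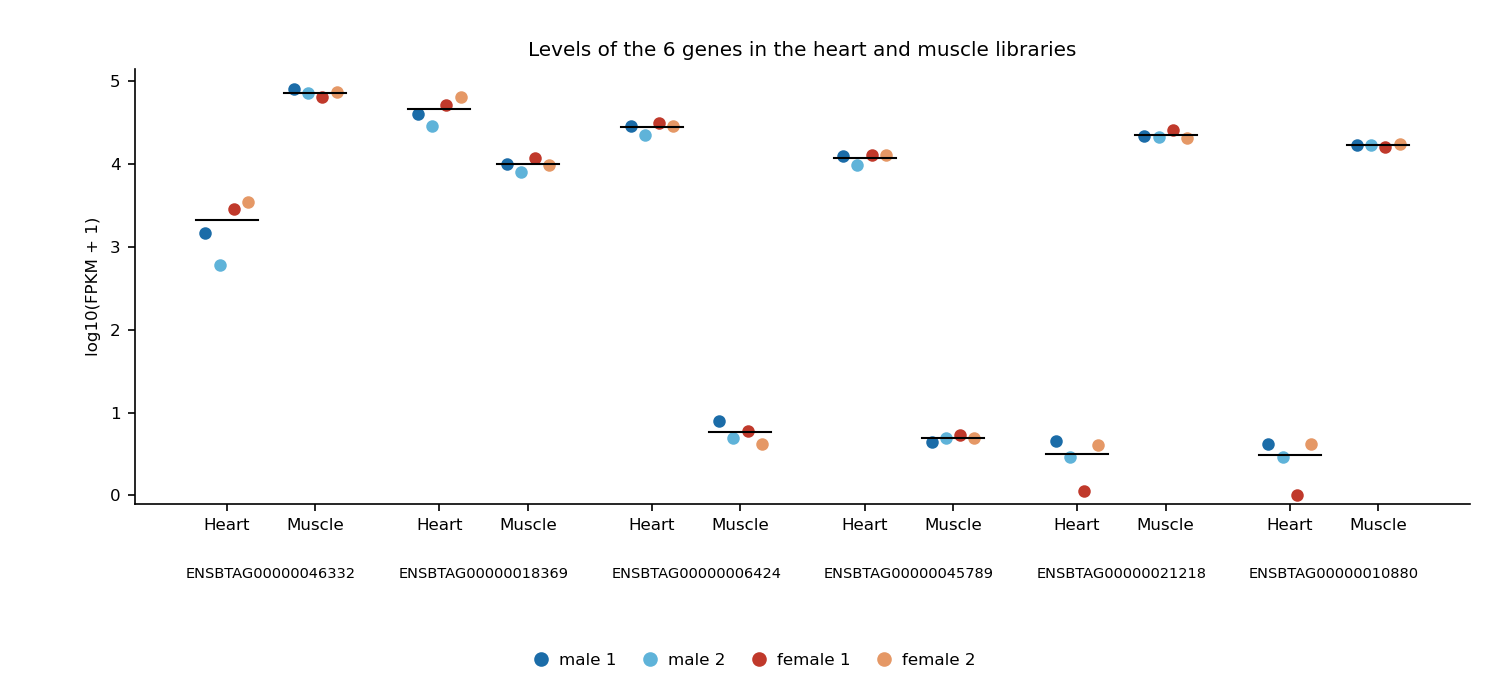
Level of each gene as log10(FPKM + 1) in the 4 heart and 4 muscle libraries, with a point per animal and a line at the log of the mean. ENSBTAG00000018369 and ENSBTAG00000046332 are high in both tissues, and the other 4 genes are near the bottom in one of them, where the heart of female 1 is at 0.142 and 0 FPKM for the muscle genes.

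The genes next in rank were these. The second most abundant gene of heart had a mean of 32670.1 FPKM there. A different gene was second in muscle, with a mean of 30266 FPKM there. The third largest excess in heart was a gene with a difference of 10.26 on the log2 scale, after 12.26 and 11.24. In muscle the third stood at -12.49, after -12.96 and -12.61, so the muscle pair was set apart from the next gene by less than the heart pair.

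Together the 6 genes held 16.7% ± 0.778 of the summed FPKM of a muscle library and 9.45% ± 1.93 of a heart library (SD, n = 4 each). In muscle, ENSBTAG00000046332, ENSBTAG00000021218 and ENSBTAG00000010880 alone held 15.4% ± 0.840. In heart, ENSBTAG00000018369, ENSBTAG00000006424 and ENSBTAG00000045789 alone held 9.23% ± 1.79. In the 39 other libraries the 6 genes together held between 0.00196% and 0.0280%.

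The animals did not vary alike for all 6 genes. ENSBTAG00000010880 had a coefficient of variation of 3.72% over the 4 muscles, lower than that of any other of the 85 genes averaging 1000 FPKM or more in muscle, whose median was 13.2%. For ENSBTAG00000046332 and ENSBTAG00000021218 in muscle it was 9.19% and 9.72%. Among the 167 such genes of heart the median was 11.4%, and ENSBTAG00000045789 and ENSBTAG00000006424 had 13.1% and 13.7%. ENSBTAG00000018369 stood at 33.1% and ENSBTAG00000046332 at 62.3%, the latter above 165 of the 167 genes.

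Those 2 variable genes put the hearts in one order, with male 2 lowest, then male 1, female 1 and female 2. Both female hearts thus lay above both male hearts, as they did by a narrow margin for ENSBTAG00000045789. The female mean of ENSBTAG00000046332 was 3183 FPKM and the male mean 1036 FPKM, and for ENSBTAG00000018369 these were 57652 and 34463 FPKM. In limma's fit over 40 libraries the male minus female difference was -1.75 ± 1.01 (SE, adjusted p = 0.353) for the first and -0.75 ± 0.57 (adjusted p = 0.525) for the second. Neither passed, and with 2 animals of each sex an exact permutation test cannot go below p = 0.333 (two-sided). None of the 6 genes was called between sexes in heart, where 3.31% of 16503 genes were, or in muscle, where 0.594% were. The heart share is not stable: its 546 genes became 34, 67 and 93 without male 2, female 1 and female 2, 698 without male 1 and 128 after quantile normalization. The smallest unadjusted p among these 12 tests was 0.0957. The sex difference of ENSBTAG00000046332 in heart was not shown to differ from that in muscle (-1.88 ± 1.42, limma adjusted p = 0.787, and 0.626 with the animal as a block), a contrast in which 0.0848% of genes were called.

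Ratios between genes were steadier than the levels for the heart pair. ENSBTAG00000045789 over ENSBTAG00000006424 was 0.443, 0.432, 0.415 and 0.444 in the hearts of males 1 and 2 and females 1 and 2. ENSBTAG00000018369 over ENSBTAG00000006424 ran wider in the same hearts, from 1.30 to 2.28. In muscle, ENSBTAG00000021218 over ENSBTAG00000010880 was 1.34 ± 0.182, and ENSBTAG00000046332 over ENSBTAG00000021218 was 3.29 ± 0.530 (SD, n = 4 each).

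Outside heart and muscle, the genes were present at traces. Over the 39 other libraries the median of ENSBTAG00000046332 was 13.8 FPKM (0.370 to 47.8), that of ENSBTAG00000018369 was 7.86 FPKM (2.91 to 71.2) and that of ENSBTAG00000006424 was 3.89 FPKM (1.58 to 188). ENSBTAG00000045789 had a median of 2.13 FPKM (0.629 to 20.1), ENSBTAG00000021218 of 3.41 FPKM (0 to 14.5) and ENSBTAG00000010880 of 2.98 FPKM (0 to 14.5). As parts of the mean in the tissue where each gene was highest, these medians lay close together, between 141 ppm for ENSBTAG00000006424 and 191 ppm for ENSBTAG00000046332. ENSBTAG00000021218 was listed at 0 in 6 of the 39 libraries and ENSBTAG00000010880 in 1, and the other 4 genes were above 0 in all of them. In bulk tissue, fewer cells of a type and less RNA per cell cannot be told apart. The sources used here do not say how reads matching several genes were assigned.

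**Figure D2:**
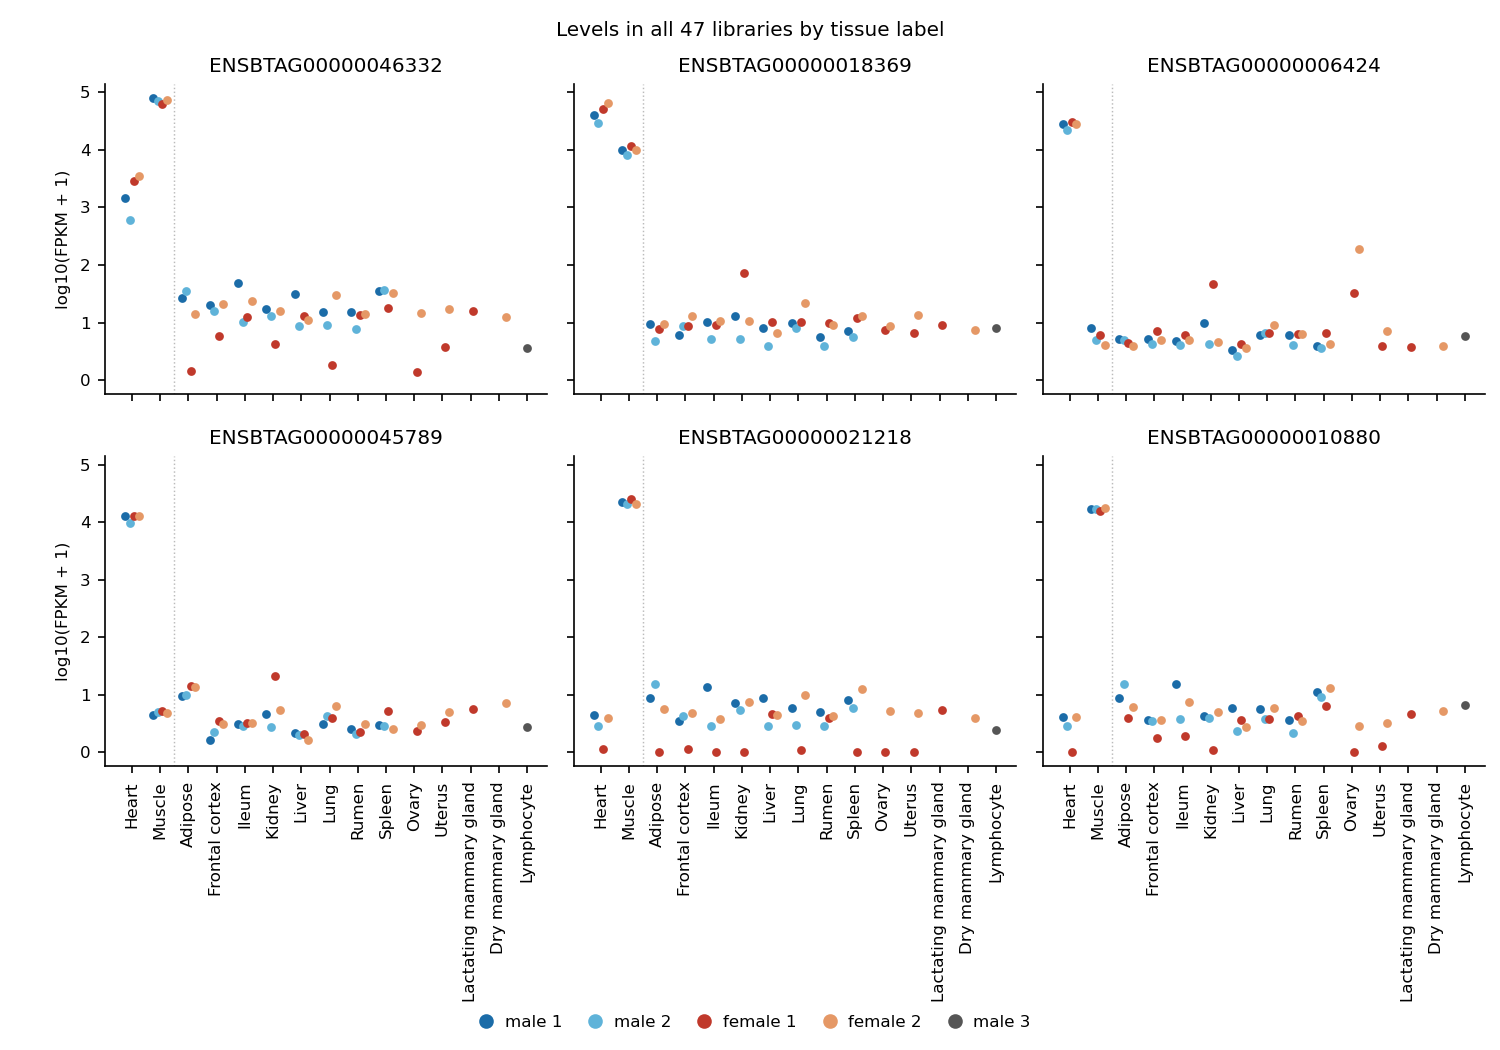
Level of each gene as log10(FPKM + 1) in all 47 libraries, by tissue label, with a point per library coloured by animal and a dotted line after heart and muscle. Above the band of low values stand ENSBTAG00000006424 in ovary, up to 188 FPKM, and ENSBTAG00000018369, ENSBTAG00000006424 and ENSBTAG00000045789 in the kidney of female 1, at 71.2, 46.5 and 20.1 FPKM.

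The labels outside heart and muscle mostly could not be put in order. For ENSBTAG00000046332 the order after muscle and heart began with spleen (29.8 FPKM ± 8.94), ileum (22.7 ± 17.7) and adipose tissue (18.5 ± 14.9; SD, n = 4 each) and ended with lymphocytes (2.62, 1 library), and from spleen on each label overlapped the next. ENSBTAG00000018369 went from kidney (24.2 FPKM ± 31.5) to rumen (6.12 ± 2.80), again with overlap at every step after muscle. ENSBTAG00000021218 went from adipose tissue (6.73 FPKM ± 6.09) to lymphocytes (1.43), and heart, at 2.13 ± 1.49, was the twelfth of the 15 labels. ENSBTAG00000010880 led in spleen (8.84 FPKM ± 2.84) and was lowest in ovary, with 0 and 1.91 FPKM, while heart was the thirteenth. For ENSBTAG00000006424 and ENSBTAG00000045789, muscle was the sixth label in the order, after ovary, kidney, lung and lymphocytes for the first and after adipose tissue, kidney and the mammary glands for the second, besides heart.

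To ask where these traces differed, each of 10 labels was compared with the other 12 labels, without the heart and muscle libraries that the choice of genes had used. All 6 genes passed the filter of at least 1 FPKM in at least 2 of the 39 libraries. Of the 60 tests of the 6 genes, 4 were called higher (6.67%) and 2 lower (3.33%), at a limma adjusted p under 0.05 and a difference of at least 1. Among all 165130 such tests of 16513 genes, 12.8% were called higher and 10.7% lower. The shares of the 6 genes were no higher than this background. A further test fell just short: ENSBTAG00000010880 in adipose tissue differed by 0.94 ± 0.39 (SE, limma adjusted p = 0.0449), and was called in 5 of 12 alternative settings (0.55 to 1.31, adjusted p of 0.00621 to 0.358).

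ENSBTAG00000045789 was higher in adipose tissue. It was listed there at 8.67, 8.85, 13.5 and 12.6 FPKM in males 1 and 2 and females 1 and 2, against a median of 2.09 FPKM over the other 35 libraries. All 4 adipose libraries lay above every other library but 1, the kidney of female 1. The difference was 1.72 ± 0.27 (SE) on the log2 scale, with a limma adjusted p of 4.37e-06, where 9.39% of genes were called higher in adipose tissue. It was called under all 12 alternative settings (differences of 1.63 to 2.09, adjusted p of 4.50e-09 to 0.000321). The mammary glands, listed at 6.08 (dry) and 4.62 FPKM (lactating), came next among the labels after kidney. The other heart gene, ENSBTAG00000006424, stood at 2.88 to 4.18 FPKM in the same adipose libraries and was not called there (difference -0.51 ± 0.36, adjusted p = 0.245).

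ENSBTAG00000006424 was higher in ovary instead. It was listed at 31.3 FPKM in the ovary of female 1 and 188 FPKM in that of female 2, against a median of 3.88 FPKM over the other 37 libraries. Both ovaries were high, the one of female 2 by far the more so, and only the kidney of female 1 lay above the lower of them. The difference was 3.94 ± 0.49 (SE) on the log2 scale, with a limma adjusted p of 2.11e-07, where 9.08% of genes were called higher in ovary. Without female 2 it was 2.64 and without female 1 it was 5.25, and it was called in both and under the other 10 alternative settings (adjusted p up to 0.00374). Leaving out either female leaves 1 ovary, whose spread is then taken from the other labels. ENSBTAG00000045789 stood at 1.33 and 2.0 FPKM in the same ovaries.

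ENSBTAG00000010880 and ENSBTAG00000046332 were higher in spleen, where 13.3% of genes were called higher. For ENSBTAG00000010880 the spleens of males 1 and 2 and females 1 and 2 were listed at 10.02, 8.002, 5.35 and 11.98 FPKM, against a median of 2.85 FPKM in the remaining 35. The difference was 1.29 ± 0.39 (SE, limma adjusted p = 0.00499). After quantile normalization it was 0.98, just under the minimum of 1, and it was called in the other 11 alternatives (adjusted p over all 12 of 0.000523 to 0.0246). For ENSBTAG00000046332 they were listed at 34.6, 35.9, 16.6 and 32.0 FPKM, against a median of 13.04 FPKM, a difference of 1.51 ± 0.64 (adjusted p = 0.0390). All 4 spleens lay above the median of the others for both genes. The second call was lost in 7 of 12 alternative settings, with adjusted p of 0.00761 to 0.135 over the 12. ENSBTAG00000021218, the other muscle gene, was not called in spleen (0.47 ± 0.66, adjusted p = 0.540).

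Both lower calls were lost under some alternative settings, as both spleen calls were. ENSBTAG00000045789 was listed in liver at 1.21, 0.980, 1.07 and 0.629 FPKM, a difference of -1.07 ± 0.27 (SE, limma adjusted p = 0.000770), where 32.2% of genes were called lower and the median of all genes was -0.69. After quantile normalization it was -0.50 (adjusted p = 0.101), and without female 2 it was -0.84, so that the call was lost in 2 of 12 alternatives. ENSBTAG00000010880 in ovary, at 0 and 1.91 FPKM, differed by -1.39 ± 0.54 (adjusted p = 0.0342), where 7.43% were called lower, and lost its call without any 1 of the 4 animals (adjusted p of 0.0518 to 0.223).

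**Figure D3:**
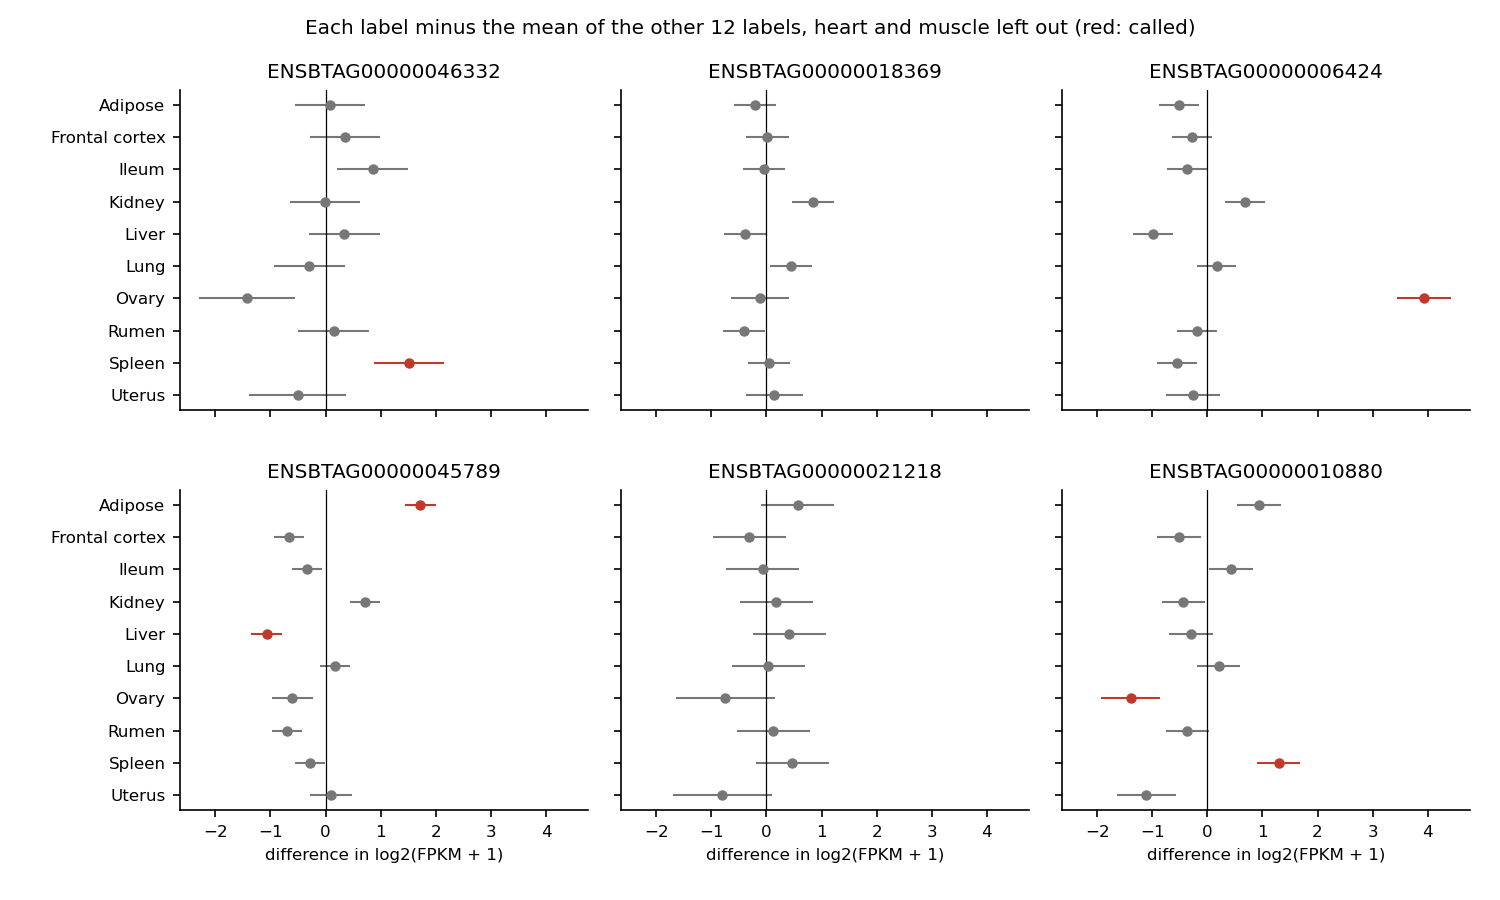
Difference of each of 10 labels from the mean of the other 12 labels on the log2(FPKM + 1) scale, per gene, with heart and muscle left out and bars of 1 standard error. The 6 red points passed the test, and ENSBTAG00000006424 in ovary, at 3.94, is the farthest from 0.

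The kidney library of female 1 stood apart from the other 3 kidneys for every gene. ENSBTAG00000018369 was listed there at 71.2 FPKM against 4.11 to 11.8 FPKM in the others, ENSBTAG00000006424 at 46.5 against 3.27 to 8.94 FPKM, and ENSBTAG00000045789 at 20.1 against 1.74 to 4.35 FPKM. These are 1547, 1692 and 1692 ppm of the genes' heart means. ENSBTAG00000046332 went the other way, with 3.27 FPKM against 11.98 to 16.3 FPKM. Its value there is 45.2 ppm of its mean in muscle, where it was highest. As a part of its heart mean it is 1548 ppm, against 5679 to 7715 ppm in the other kidneys. ENSBTAG00000021218 and ENSBTAG00000010880 were listed at 0 and 0.119 FPKM, against 4.43 to 6.37 and 3.02 to 4.09 FPKM.

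In that kidney the ratios between the heart-side genes lay within the range of the hearts. ENSBTAG00000045789 over ENSBTAG00000006424 was 0.433, within the 0.415 to 0.444 of the 4 hearts, and ENSBTAG00000018369 over ENSBTAG00000006424 was 1.53, within 1.30 to 2.28. In the other kidneys, of males 1 and 2 and female 2, the first ratio was 0.401, 0.532 and 1.21 and the second 1.32, 1.26 and 2.70. In the hearts of these animals the second was 1.41, 1.30 and 2.28, and in the heart of female 1 it was 1.64. Values in the heart range were not particular to the kidney library of female 1. The first ratio was also 0.433 in the ileum of female 1 and 0.426 in the lung of male 1, where the second was 1.55 and 1.77. A further 2 genes restricted to heart (2000 FPKM or more in heart on average, and 100 or more times the mean of any other label) were listed in this library at 10.4 and 13.2 FPKM, or 1808 and 1152 ppm of their heart means, against at most 0 and 149 ppm in the other kidneys. The second was higher still in the muscle of female 1, at 32.9 FPKM or 2863 ppm, against 307 to 555 ppm in the other muscles. The first was at 0 in that muscle. With all kidneys in the fit, ENSBTAG00000018369 differed by 0.85 ± 0.38, ENSBTAG00000006424 by 0.69 ± 0.36 and ENSBTAG00000045789 by 0.71 ± 0.27 (SE), and none was called. They were called without male 2 (1.26, 1.04 and 1.08), and the first and second also without female 2 (1.15 and 1.16). Without the kidney of female 1 they were 0.10, -0.07 and 0.12.

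Several labels lay outside the heart range for the first ratio. In adipose tissue ENSBTAG00000045789 over ENSBTAG00000006424 was 2.07 to 4.36, and it was 2.04 in the dry and 1.70 in the lactating gland. In ovary it was 0.0106 and 0.0425. Spleen (0.469 to 0.753), uterus (0.670 and 0.797) and muscle (0.492 to 1.23) also lay wholly above the hearts. In rumen it ran from 0.248 to 0.386 and in lymphocytes it was 0.364, below the hearts. In liver, ileum and lung it ran from 0.245 to 0.688, around the heart values.

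**Figure D4:**
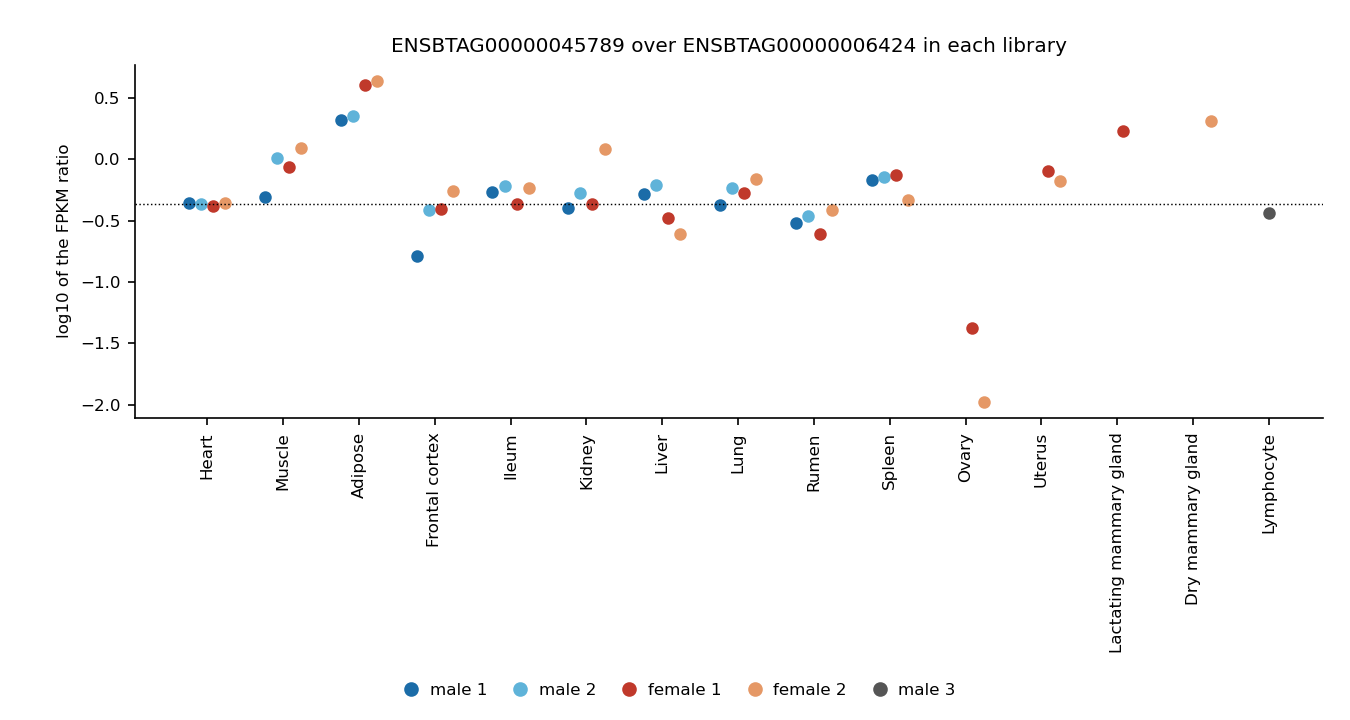
Ratio of the FPKM of ENSBTAG00000045789 to that of ENSBTAG00000006424, on a log10 axis, in each library by label, with a dotted line at the heart mean of 0.433. Adipose tissue and the mammary glands lie farthest above the line, and spleen, uterus and muscle also lie above it. Both ovaries lie farthest below it, rumen and lymphocytes also lie below, and the kidney and the ileum of female 1 lie on it.

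The traces of the muscle genes moved with traces of genes from unrelated tissues, while the heart-side genes had like medians or higher ones where those traces were low. In 10 libraries, the lymphocytes and 9 libraries of female 1, the 18 genes restricted to liver and the 10 restricted to rumen had medians of at most 33.3 and 6.51 ppm of their source level. In the other libraries these were at least 61.0 and 79.6 ppm (33 libraries each, with the source tissue left out). Outside heart and muscle, 9 libraries fell on the low side and 30 on the other. The labels name no batch. Of the 9, 8 are of female 1, but her liver, rumen and lactating gland were on the other side, with ENSBTAG00000021218 at 3.61, 2.92 and 4.52 FPKM against 0 to 0.145 FPKM in her low libraries.

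ENSBTAG00000021218 was listed at 0 in 6 of the 9 low libraries and reached at most 1.43 FPKM there, below the 1.86 to 14.5 FPKM of the other 30. ENSBTAG00000046332 had a median of 2.78 FPKM (0.370 to 16.6) in the 9 and 14.7 FPKM (6.73 to 47.8) in the 30. ENSBTAG00000010880 had medians of 0.930 (0 to 5.68) and 3.28 FPKM (1.15 to 14.5), so both genes overlapped between the sides. The 7 further genes restricted to muscle stood at 3.26 to 87.8 ppm in the 9 libraries and at 109 to 878 ppm in the 30. For the heart-side genes the medians were 7.75 and 7.90 FPKM (ENSBTAG00000018369), 5.56 and 3.71 FPKM (ENSBTAG00000006424) and 2.45 and 2.04 FPKM (ENSBTAG00000045789). The 2 further genes restricted to heart had medians of 178 ppm in the 9 and 75.1 ppm in the 30. The part of these traces in any tissue difference was not tested. Leaving out the 10 libraries keeps the libraries with the higher liver and rumen traces, so the values that follow cannot speak to that part. Without the 10 libraries the differences in adipose tissue (1.63) and ovary (5.30) and both differences in spleen (1.28 and 1.10) were still called, and so were those in liver (-1.07) and of ENSBTAG00000010880 in adipose tissue (1.04), while ENSBTAG00000010880 in ovary was not (-0.80, adjusted p = 0.222). The ovary values then rest on 1 library, with the spread of the other labels.

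Within the 9 low libraries the muscle genes parted. In the spleen of female 1, ENSBTAG00000021218 was listed at 0, while ENSBTAG00000010880 was at 5.35 and ENSBTAG00000046332 at 16.6 FPKM. In the adipose tissue of that animal the same genes were at 0, 2.98 and 0.448 FPKM. In lymphocytes they were at 1.43, 5.68 and 2.62 FPKM, and in the ileum of female 1 at 0, 0.930 and 11.4 FPKM. Which of the 3 genes was highest thus changed between tissues.

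**Figure D5:**
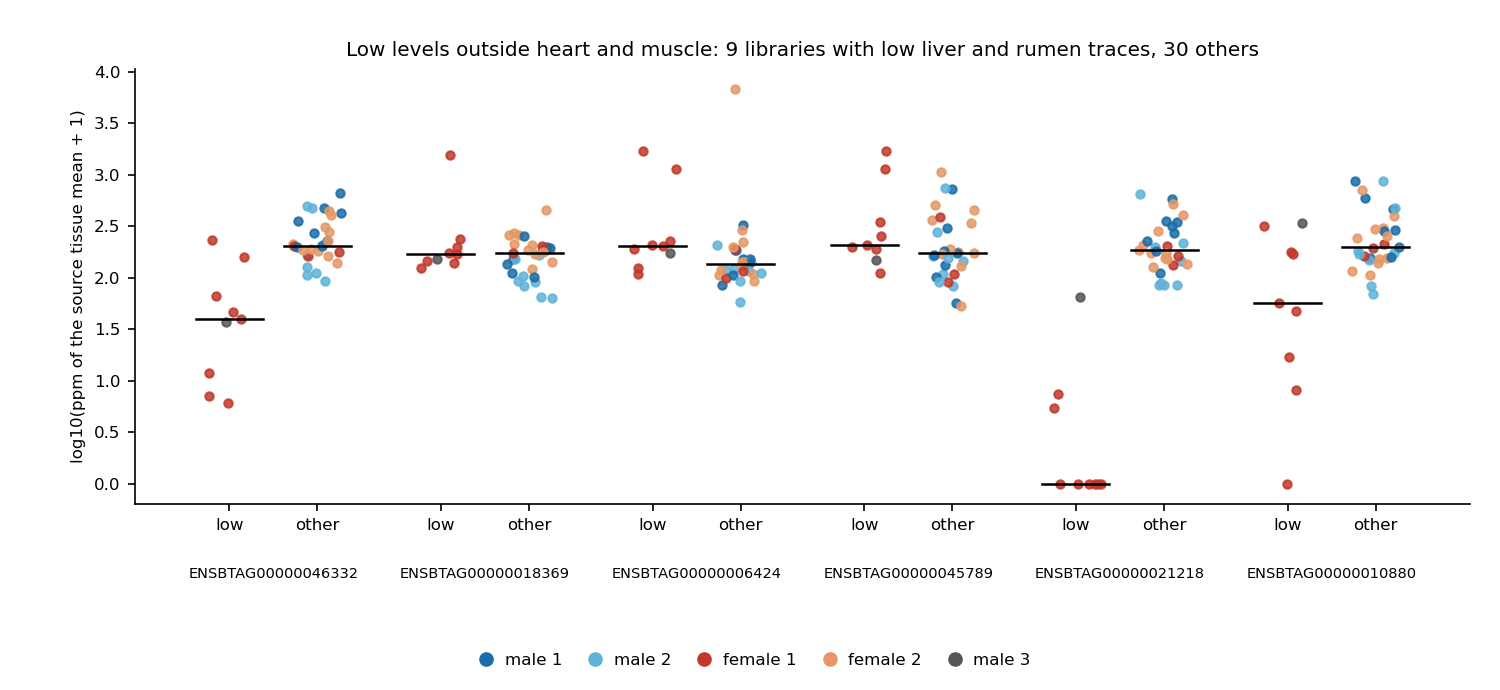
Level of each gene in the 39 libraries outside heart and muscle, as log10 of ppm of its source tissue mean plus 1, in the 9 libraries with low liver and rumen traces and the 30 others, with lines at the medians. The medians of the 3 muscle genes are lower in the 9 libraries, where ENSBTAG00000021218 has a median of 0. Only ENSBTAG00000021218 has no overlap between the 9 and the 30. The medians of the 3 heart-side genes lie close together in both.

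Over the 39 libraries the muscle genes varied together, with Spearman correlations of 0.798 (ENSBTAG00000046332 and ENSBTAG00000021218), 0.676 (ENSBTAG00000046332 and ENSBTAG00000010880) and 0.654 (the muscle pair). The heart-side genes were less alike, from 0.308 for the heart pair to 0.482 for ENSBTAG00000018369 and ENSBTAG00000006424. Between a muscle gene and a heart-side gene the correlations ran from -0.246 to 0.255. The points share libraries and animals, and the values are descriptive. The muscle genes all had lower medians in the libraries with low liver and rumen traces, and correlations within either side were not taken.

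Genes with a like pattern were sought among 16634 genes by Pearson correlation of log2(FPKM + 1) over the 47 libraries. For ENSBTAG00000018369 the nearest gene, at 0.994, was the second most abundant gene of heart, with means of 32670.1 FPKM in heart, 10842 FPKM in muscle and at most 30.9 FPKM elsewhere, in kidney. For ENSBTAG00000021218 it was the second most abundant gene of muscle (0.993), at 30266 FPKM in muscle and 6.30 FPKM in heart. For ENSBTAG00000010880 the nearest reached 0.984, with 3751 FPKM in muscle and 0.445 FPKM in heart. The patterns of the other genes had looser matches, 0.973 for ENSBTAG00000045789, 0.960 for ENSBTAG00000046332 and 0.958 for ENSBTAG00000006424, and of the 3 nearest genes of ENSBTAG00000006424 none had more than 28.4 FPKM in heart.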

How the data were processed

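RNA sequencing of 47 bovine libraries was deposited as 1 table of FPKM values, made by the authors; per the submitters' processing notes, the tools were Trimmomatic 0.39, STAR and Cufflinks with the UMD 3.1 build. The table has 51 columns, of which 47 matched a sample's labels, and the other 4 were left out. For the muscle of male 1 the column name is spelled with 1 letter more than its title. Depth, multi-mapping settings and the annotation release are not given in the sources used here, so no counting interval or detection floor could be set, and a listed 0 can be a failed estimate. The number in each sample's title was read as the animal, which gives 5 animals where the series' design text speaks of 4. Animals are the replicates, and libraries of 1 animal share that animal.

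The 6 members and all lists were chosen with earlier results of these data known. All members are named, and genes of like pattern (the 3 highest correlations) are described without identifiers. Lists of marker and pathway genes set up by symbol could not be applied, since the identifiers could not be paired with names, and no sequence could be matched.

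Values were analysed as log2(FPKM + 1) with limma 3.58.1 in R 4.3.3 and Benjamini-Hochberg adjustment over all genes that reached 1 FPKM in 2 or more libraries of the comparison. Heart and muscle were fitted alone, the 10 other labels with at least 2 libraries over the 39 libraries without heart and muscle, and sex over the 10 labels with 4 libraries. Folds on this scale understate changes of low genes. Descriptive values used Python 3.11.15, numpy 2.4.6 and pandas 2.3.3, and figures matplotlib 3.10.9. The heart and muscle fit was tested on simulated data without animal effects, and the label and sex fits were not. Same-numbered libraries come from the same animal, and heart and muscle deviations correlated at 0.196 to 0.371 within animals. Alternatives were a pseudocount of 0.1, no filter, quantile normalization, rescaling to the same sum, leaving out each animal, and an animal block. Leaving out the 10 libraries with low traces, the kidney library of female 1 or the lymphocyte library, and the animal block for the sex difference between tissues, were chosen after seeing the data.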

Additional observations from a re-analysis of the deposited data

Results flagged for a closer look

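Of 60 groups of 4 libraries, 7 held a library whose gap to the nearest of the others, as a share of the group's range on the log2(FPKM + 1) scale, exceeded Dixon's critical value, and chance gives about 1 in 20. Of these, 4 were libraries of female 1. ENSBTAG00000046332 was listed at 16.6 FPKM in its spleen, ENSBTAG00000021218 at 0 and ENSBTAG00000010880 at 0.119 FPKM in its kidney, and ENSBTAG00000010880 at 0.770 FPKM in its frontal cortex, each the lowest of the 4. The other 3 were of male 2, again the lowest: ENSBTAG00000046332 at 6.73 FPKM and ENSBTAG00000006424 at 3.07 FPKM in rumen, and ENSBTAG00000045789 at 9566 FPKM in heart.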

How the results depend on the processing

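The heart minus muscle differences of the 6 genes kept their direction under all 10 alternatives run on them. Because these values chose the genes, this is a description and no test. The genes called higher in heart and in muscle went from 3120 and 811 to 1586 and 1379 with quantile normalization, and with the replicate block (animal) to 3128 and 818, where all 6 calls of the 6 genes among the labels were shared. The sex differences within a tissue could not be fitted with the block, since each animal has 1 sex, and the difference between tissues gave 15 genes with it (14 before). A pseudocount of 0.1 gave 27944 lower calls over the 10 labels (17738 before), 1901 lower in ovary and 952 between sexes in heart (546 before). Quantile normalization gave 1970 lower in liver and 2 higher calls in the 60 tests of the 6 genes among the labels. For sex in heart, in muscle and between these it gave 128, 174 and 29 genes. Without a filter the last was 28. Without the 10 libraries with low traces, sex in heart and the difference between tissues gave 75 and 6. In the 60 label tests of the 6 genes, leaving out each animal gave 3 to 7 higher and 0 to 2 lower calls. Over all genes these settings gave 19455 to 22207 higher and 16821 to 20801 lower calls in the 10 labels. For the sex contrasts they gave 34 to 698, 37 to 105 and 4 to 13 genes. There 1 sex is left with 1 animal, assumed to vary like the others. The kidney difference of ENSBTAG00000006424 ran from -0.23 to 1.16 when each animal was left out, with -0.23 without female 1, and turned to -0.19 without the 10 libraries and -0.067 without that kidney. The negative values all come from settings without the kidney of female 1, and the reason for its level was not tested. Rescaling to the same sum moved the heart means of ENSBTAG00000006424 and ENSBTAG00000045789 to 21174 and 9175 FPKM. With Spearman correlation, 0 of the 3 nearest genes of ENSBTAG00000046332 and of ENSBTAG00000006424 were shared, and 1 of those of ENSBTAG00000018369 and of ENSBTAG00000045789. With a pseudocount of 0.1, 1 of 3 was shared for ENSBTAG00000046332 and for ENSBTAG00000018369. The remaining genes shared 2 or 3 in each case. Depth is unknown, which limits what a level near 0 can show.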
